A study of Mus musculus with 9 samples.

Results

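The comparison set bone marrow cells that carried the full-length leukaemia fusion allele of Cbfb against cells that carried a fusion allele altered in its multimerization domain, across all genes. Its members are 6 of the 9 RNA-seq libraries of the study, chosen by the genotype in the labels. Cbfb+/MYH11 mice (MYH11 below) carried 1 normal Cbfb allele and 1 allele that encodes CBFβ-SMMHC, in which CBFβ is joined to the tail of a smooth muscle myosin (MYH11), and gave 3 libraries. Cbfb+/mDE mice (mDE below) carried 1 normal Cbfb allele and 1 fusion allele with a mutated C-terminal multimerization domain, and also gave 3 libraries. The labels name the allele only as mDE, and its nature is taken from knowledge of the study. The 3 remaining libraries are from WT mice and entered the fit only to share its estimate of spread; their values are given where they help place the others. All mice were of the C57BL/6 strain and had received pIpC, an interferon inducer made of synthetic double-stranded RNA that is widely used to switch on Cre alleles. The labels name no Cre line, no age and no time after pIpC. Cells were positively selected on CD117 (c-Kit) beads, so each library mixes every marrow cell that the beads retained. Separate mice are not stated for the libraries of a genotype. The p-values therefore reflect how far these libraries spread, and part of that spread may be technical.

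CBFβ is the partner that stabilises the RUNX transcription factors on DNA, and RUNX1-CBFβ is required for definitive blood formation and for the maturation of granulocytes, platelets and lymphocytes. The inversion inv(16) of human acute myeloid leukaemia joins CBFB to MYH11, and the resulting protein keeps the RUNX-binding part of CBFβ. Its myosin tail carries a region through which fusion molecules assemble into multimers and a region that binds corepressors. c-Kit, the receptor for stem cell factor, marks blood stem and progenitor cells and stays on mast cells throughout their life.

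The libraries held 39300366 to 50073097 reads, and 15948 of 43629 genes passed the filter on low counts. Values are the authors' normalised reads, in which 1 read is worth 0.852 to 1.17, and folds are ratios of group means. Log2 differences are MYH11 minus mDE on the scale log2(value + 1), which understates changes of genes with few reads. Of the genes tested with limma, 8869 (55.6%) passed an adjusted p of 0.05, 4718 (29.6%) higher and 4151 (26.0%) lower in MYH11. At least 2-fold differences were called for 2021 genes higher (12.7%) and 1504 lower (9.43%), and at least 8-fold differences for 452 higher (2.83%) and 234 lower (1.47%). In 9919 genes (62.2%) the 3 libraries of MYH11 and the 3 of mDE did not overlap, 33.2% higher and 29.0% lower in MYH11. The median log2 difference over all genes was 0.03. The counts and medians of gene lists below are to be read against these shares.

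**Figure D1:**
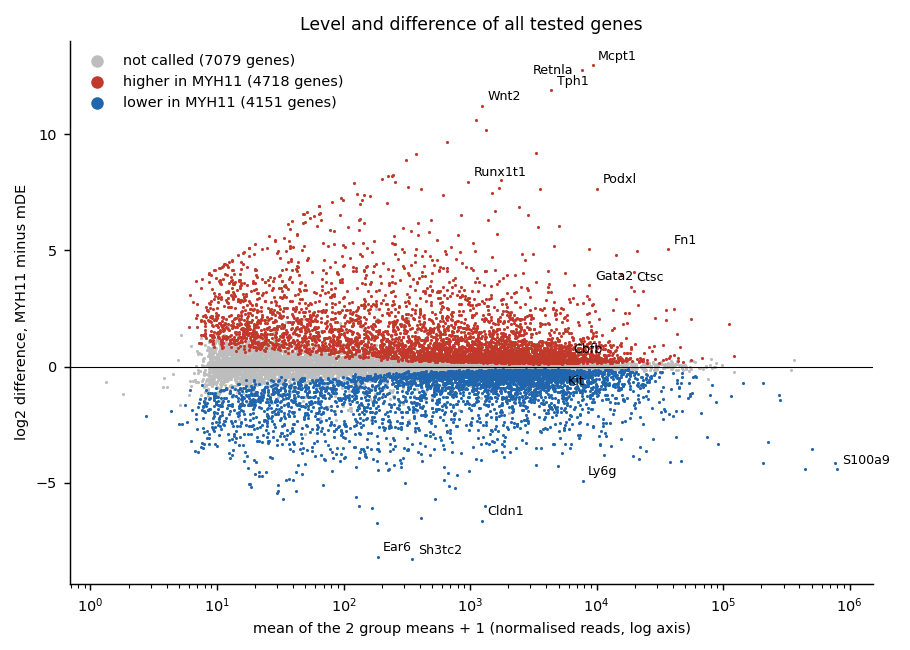
Log2 difference (MYH11 minus mDE, y axis) against the mean of the group means plus 1 in normalised reads (x axis, log scale) for the 15948 tested genes. Red points are the 4718 genes called higher in MYH11 and blue points the 4151 called lower; the most abundant genes lie on the lower side, and the largest rises are genes almost without reads in mDE.

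The called genes held very different amounts of RNA. Genes called lower in MYH11 took 50.6% ± 2.07 (SD, n = 3) of the reads in mDE and 27.2% ± 2.27 in MYH11. Genes called higher took 16.9% ± 0.916 of the reads in mDE and 33.7% ± 1.73 in MYH11. The 10 most abundant genes alone took 14.0 to 16.9% of the reads of each mDE library and 4.66 to 5.08% of each MYH11 library. All of these are shares of reads, in which a rise of some genes lowers the share of others.

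The genes joined in the fusion were looked at first. For Cbfb (ENSMUSG00000031885; GRCm38 chromosome 8, 105170674 to 105217989) the libraries held 4957, 4941 and 5782 normalised reads in mDE and 6449, 6349 and 6909.9 in MYH11, so the groups did not overlap, and the difference of 1.26-fold passed the test (log2 difference 0.33, SE 0.071, limma adjusted p = 0.00317). WT stood at 7136, 6535 and 6929.8, which overlapped MYH11, so Cbfb does not tell the MYH11 libraries from WT. All mDE libraries lay below all WT libraries. Myh11 (ENSMUSG00000018830, chromosome 16, 14194535 to 14291372) encodes a smooth muscle myosin. It stood at 28.7, 41.4 and 43.8 in mDE and 219, 194 and 176 in MYH11, against 7.72, 8.64 and 4.70 in WT. All 6 knock-in libraries lay above the 3 WT libraries, and MYH11 lay 5.18-fold above mDE (log2 difference 2.36, SE 0.26, limma adjusted p = 5.91e-05). The table counts whole genes, so reads of a fusion transcript and of the normal genes cannot be told apart. The part of the Myh11 reads that comes from the knock-in alleles was not tested.

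The RUNX genes, which encode the DNA-binding partners of CBFβ, did not move together, and with Cbfb and Myh11 4 of the 5 genes were higher and 1 lower (median 0.68). Runx1 was at 3627, 3608 and 3506 in mDE and 6342, 5794 and 7589 in MYH11, 1.84-fold higher without overlap (log2 difference 0.87, SE 0.087, limma adjusted p = 3.14e-05). Runx2 rose from 1575 ± 105 to 2533 ± 352 (log2 difference 0.68, SE 0.12, limma adjusted p = 0.00121). Runx3 was lower in MYH11, at 999, 769.6 and 856 against 1439, 1779 and 1634 (log2 difference -0.89, SE 0.11, limma adjusted p = 9.27e-05). Kit, which encodes the receptor used for the selection, was 2.05-fold lower in MYH11, at 3868, 3226 and 3521 against 6987, 7622 and 7159 in mDE (log2 difference -1.04, SE 0.07, limma adjusted p = 3.23e-06). The lowest mDE library thus held more Kit than the highest MYH11 library.

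The largest rises in MYH11 were in genes that mDE cells hardly transcribed. Mcpt1, a chymase of mucosal mast cells, stood at 1.10, 0.899 and 2.19 normalised reads in mDE and 16539, 18321 and 21135 in MYH11 (log2 difference 12.96, SE 0.91, limma adjusted p = 4.14e-06). Retnla, the secreted resistin-like molecule α of alternatively activated macrophages, stood at 1.10, 2.70 and 0 in mDE and 17928, 6702 and 21170.0 in MYH11 (log2 difference 12.75, SE 0.93, limma adjusted p = 5.05e-06). Tph1, the tryptophan hydroxylase that starts serotonin synthesis in peripheral cells, stood at 0, 1.799 and 2.19 in mDE and 10591, 3788 and 11921 in MYH11 (log2 difference 11.88, SE 0.94, limma adjusted p = 7.85e-06). In all 3 genes every MYH11 library exceeded every mDE library by more than 3 orders of magnitude, while the MYH11 libraries differed among themselves: replicate 2 held the fewest Retnla and Tph1 reads.

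The promoters of the genes with the largest changes are shown because RUNX1-CBFβ binds DNA at a short core, and so that a reader can see which of them carry it. The windows cover 250 bases before the start of each gene in RefSeq on GRCm38.p6, read 5′ to 3′ on the gene's strand and ended where an exon of the GENCODE M21 annotation begins. They were taken for the first 3 rises and for 3 large falls with an entry. Sh3tc2, the largest fall, was passed over and its window is not reported here, so the 3 fallen genes are not the 3 largest falls. Capitals mark the RUNX core TGTGGT on either strand.
Mcpt1: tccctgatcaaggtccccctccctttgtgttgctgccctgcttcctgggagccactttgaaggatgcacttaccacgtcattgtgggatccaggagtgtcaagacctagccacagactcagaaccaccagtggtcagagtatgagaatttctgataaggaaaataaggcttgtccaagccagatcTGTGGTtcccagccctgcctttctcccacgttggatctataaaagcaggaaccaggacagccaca
Retnla: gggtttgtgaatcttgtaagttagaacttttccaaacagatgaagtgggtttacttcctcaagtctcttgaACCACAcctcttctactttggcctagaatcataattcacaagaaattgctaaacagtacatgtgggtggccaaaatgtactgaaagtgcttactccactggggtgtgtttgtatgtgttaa
Tph1: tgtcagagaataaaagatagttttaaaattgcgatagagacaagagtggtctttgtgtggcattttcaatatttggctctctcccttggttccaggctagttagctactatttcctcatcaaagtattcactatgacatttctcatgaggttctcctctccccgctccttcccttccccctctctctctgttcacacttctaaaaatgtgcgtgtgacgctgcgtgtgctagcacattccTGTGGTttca
Ear6: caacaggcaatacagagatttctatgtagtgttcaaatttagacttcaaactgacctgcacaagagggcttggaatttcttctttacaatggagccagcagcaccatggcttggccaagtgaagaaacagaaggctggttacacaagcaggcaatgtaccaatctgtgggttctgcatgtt
Fam71b: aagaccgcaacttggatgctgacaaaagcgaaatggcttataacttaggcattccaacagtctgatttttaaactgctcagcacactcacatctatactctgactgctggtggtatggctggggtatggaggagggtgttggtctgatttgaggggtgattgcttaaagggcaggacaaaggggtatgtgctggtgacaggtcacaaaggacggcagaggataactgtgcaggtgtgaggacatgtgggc
Cldn1: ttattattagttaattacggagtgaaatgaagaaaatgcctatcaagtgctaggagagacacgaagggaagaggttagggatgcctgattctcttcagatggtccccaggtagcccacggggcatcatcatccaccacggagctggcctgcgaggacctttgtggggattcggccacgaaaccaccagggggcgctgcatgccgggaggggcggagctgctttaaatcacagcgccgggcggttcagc
The windows lie at chr14:56017714-56017963 (plus strand) for Mcpt1, chr16:48842359-48842550 (plus) for Retnla, chr7:46672538-46672787 (minus) for Tph1, chr14:51853518-51853698 (plus) for Ear6, chr11:46404478-46404727 (plus) for Fam71b and chr16:26371842-26372089 (minus) for Cldn1. Each of the 3 windows of risen genes holds 1 RUNX core, which starts 65 bases before the RefSeq start in Mcpt1, 179 in Retnla and 10 in Tph1. The 3 windows of fallen genes hold none, and no window holds the GATA site AGATAA on either strand. Over the 10872 tested genes with a promoter in the table, 11.4% of the 250-base windows hold the RUNX core and 6.32% the GATA site. The RUNX share was 12.3% among the 1393 genes called at least 2-fold higher, 13.8% among the 1006 called at least 2-fold lower and 11.2% among those not called. The presence of these letters is a description of the windows and not evidence of binding.

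The other large rises covered secreted proteins, enzymes and cell surface molecules. Wnt2, a secreted Wnt ligand, had no read in any mDE library and stood at 2399, 1782 and 3235 in MYH11, at least 798-fold higher against a floor of 3 reads per library. Mcpt2, a further mucosal mast cell chymase, stood at 1849, 2251 and 2634 in MYH11 against 2 reads over the 3 mDE libraries, a ratio of 3296 (912 to 27217), in which the brackets hold the 95% interval for counting error only. Ccl24, the eosinophil-attracting chemokine eotaxin-2, rose from 8.82, 11.7 and 8.76 to 8313, 3875 and 7656 (log2 difference 9.20, SE 0.35, limma adjusted p = 2.94e-07). Ddc, which decarboxylates aromatic amino acids to serotonin and dopamine, rose from 13.2, 15.3 and 8.76 to 3411, 2593 and 4415 (log2 difference 8.01, SE 0.25, limma adjusted p = 1.55e-07). Tph1 and Ddc encode consecutive steps of serotonin synthesis, and both were high in every MYH11 library.

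Several further genes of this set had 1 or 2 reads over the 3 mDE libraries, and are given by their ratio with its counting interval. C2cd4a had a ratio of 1902 (526 to 15711), Gkn3, a gastric mucosal protein, 1801 (323 to 71166), and C6, a component of the complement attack complex, 1291 (231 to 51013). Dnase2b, an acid DNase, had 715 (198 to 5906), Pga5, a pepsinogen, 705 (195 to 5827), and Pkp1, a desmosome protein, 579 (160.0 to 4787). Gsg1l, an AMPA receptor accessory protein, had 2.20, 2.70 and 0 in mDE and 2729, 2134 and 3158 in MYH11, a log2 difference of 10.18 that was 9.58 without mDE replicate 3. For C6 it was 8.19, and 8.86 without MYH11 replicate 2. In Retnla, Tph1, Wnt2, Gsg1l, C2cd4a, Ccl24, Gkn3, Dnase2b, Pga5, C6, Pkp1, Ddc and Runx1t1 replicate 2 was the lowest of the MYH11 libraries, and still lay far above all mDE libraries. Reads of Mcpt1 and Mcpt2 may be divided between near-identical copies of the chymase family, so their separate levels are uncertain.

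**Figure D2:**
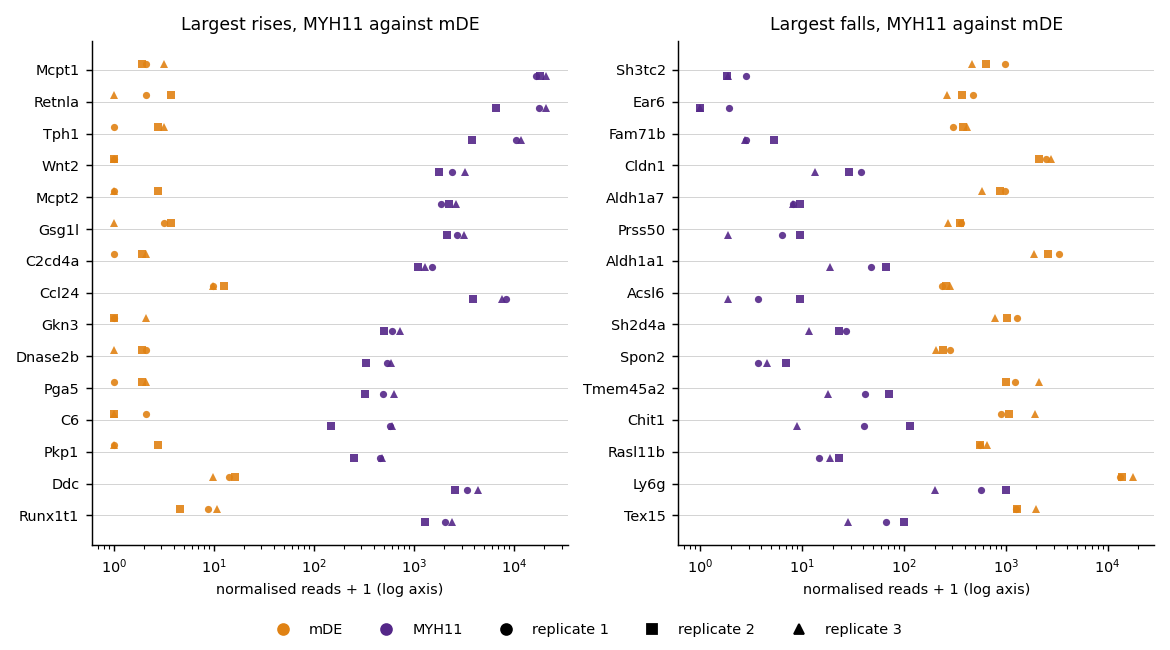
Normalised reads plus 1 (x axis, log scale) of the 15 largest rises and the 15 largest falls in the 3 mDE (orange) and 3 MYH11 (violet) libraries, with symbols for the replicates. The groups are separated by wide gaps in all 30 genes, and MYH11 replicate 2 (squares) is the MYH11 library nearest to mDE in 24 of them.

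Genes of mast cell granules were mostly higher in MYH11. Of 15 tested genes for mast cell proteases and secretory products, 10 were called higher and 2 lower, with a median log2 difference of 1.32. Cpa3, the mast cell carboxypeptidase, was at 2088, 1464 and 1735 in mDE and 36279.8, 16751 and 35331 in MYH11 (log2 difference 3.99, SE 0.27, limma adjusted p = 3.24e-06). Slc18a2, the vesicular transporter that loads amines into granules, rose from 691, 531 and 743 to 5288, 4190.0 and 6446 (log2 difference 3.01, SE 0.16, limma adjusted p = 1.08e-06). In both genes MYH11 replicate 2 was lowest and the groups did not overlap. Against the direction, Hdc, which makes histamine, fell from 16055 ± 2301 to 9157 ± 388 (log2 difference -0.80, SE 0.13, limma adjusted p = 0.000733). The protease inhibitor Serpinb1a fell from 30304 ± 3751 to 6592 ± 1797 (log2 difference -2.23, SE 0.17, limma adjusted p = 5.9e-06). A further 8 listed genes did not reach the filter on low counts. Among them the tryptase Tpsb2 had 44.3, 3.41 and 68.2 normalised reads in MYH11 and at most 1.10 in mDE, and Tpsab1 and the receptor Mrgprb1 had no read in any library. Genes that pass the filter only because 1 group is high had to differ, so the count describes the tested members only.

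The IgE-binding and β chains of the IgE receptor rose, as did part of the signalling chain behind them. In this list 12 of 16 genes were called higher, 3 lower, and the median was 1.11. Fcer1a, the IgE-binding α chain, went from 672, 353 and 502 to 20279, 11326 and 18695 (log2 difference 5.04, SE 0.26, limma adjusted p = 9.33e-07). Ms4a2, the signal-amplifying β chain, rose from 1199, 879.6 and 883 to 30039, 21959.8 and 30842 (log2 difference 4.80, SE 0.16, limma adjusted p = 1.55e-07). The lowest MYH11 library thus held more than 10 times the reads of the highest mDE library for both chains. Fcer1g, the γ chain that is shared with Fc receptors of neutrophils and monocytes, moved the other way, from 15197, 13607 and 17944 to 9439, 9276 and 7866 (log2 difference -0.81, SE 0.13, limma adjusted p = 0.000601). Of the kinases and adaptors, Fyn (4.31-fold) and Gab2 (5.34-fold) were higher, while Syk fell from 16313 ± 1733 to 12065 ± 569 and Plcg2 from 15433 ± 1518 to 9440.4 ± 797 (limma adjusted p = 4.05e-07, 4.52e-07, 0.00457 and 0.000303).

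Of 7 mast cell markers, 6 had reads in both knock-in groups and 1, Mrgprb1, had none. Their summed share of reads was 0.00600 to 0.00892% in mDE, 0.131 to 0.227% in MYH11 and 0.00664 to 0.00842% in WT, so the mDE libraries lay near WT. The basophil markers were at 0.0141 to 0.0233% in mDE and 0.0445 to 0.0719% in MYH11. Of these 5 markers Fcer1a, Cd200r3 and Il4 were higher in MYH11, while the basophil proteases Prss34 and Mcpt8 were lower. The mast cell share moves with the lists of mast cell and IgE receptor genes, which hold some of the same genes, and its part in their change was not tested. In bulk RNA, more cells of a type and more RNA of its genes per cell cannot be told apart, and the same holds for fewer cells and less RNA.

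**Figure D3:**
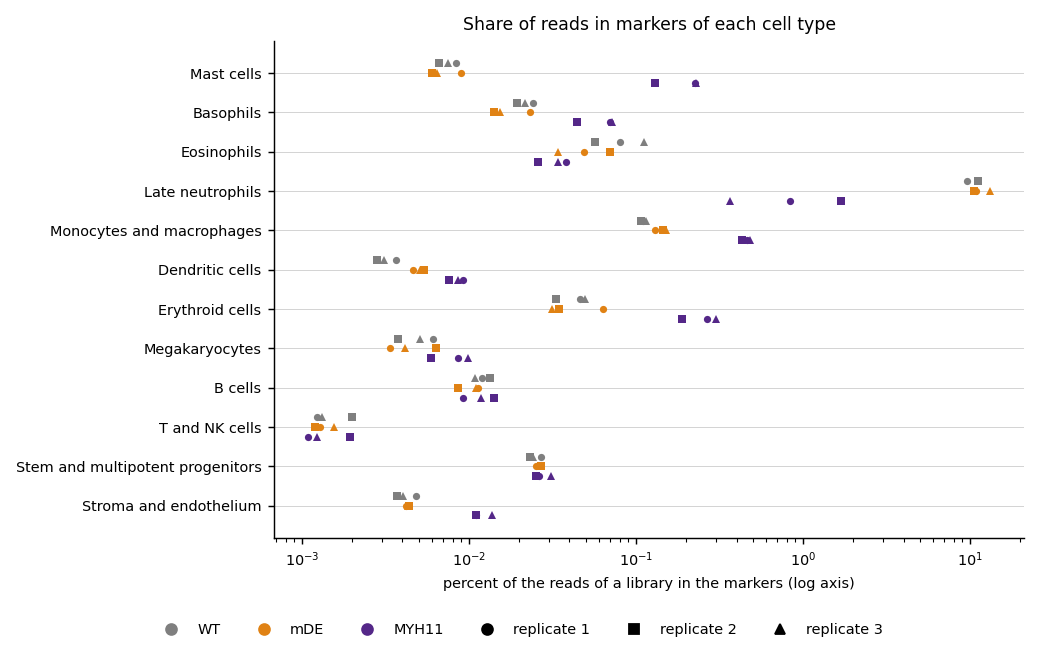
Percent of the reads of each library (x axis, log scale) that fall in the markers of 12 cell types, for WT (grey), mDE (orange) and MYH11 (violet), with symbols for replicates. Mast cell, monocyte and erythroid markers are higher in MYH11 than in any mDE or WT library, and late neutrophil markers lower. Stem, B, and T and NK cell markers overlap, and the stem sum includes Kit, which is lower in MYH11 than in mDE.

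Genes linked to eosinophils and basophils were split. Of 17 tested genes 5 were called higher and 9 lower (median -1.57). The type 2 cytokines were among the higher: Il4 stood at 19.8, 28.8 and 26.3 in mDE and 442, 369 and 575 in MYH11 (log2 difference 4.15, SE 0.24, limma adjusted p = 1.43e-06), and Il13 had no read in mDE and 241, 177 and 299.5 in MYH11. Siglecf, a sialic acid-binding lectin of eosinophils and alveolar macrophages, rose by a log2 difference of 2.03 (limma adjusted p = 2.34e-05). Prss34, a basophil tryptase, fell from 5660.4, 3804 and 4483 to 785, 831 and 761 (log2 difference -2.53, SE 0.12, limma adjusted p = 7.35e-07). The basophil protease Mcpt8 fell from 2715 ± 944 to 885 ± 95.4 (log2 difference -1.57, SE 0.21, limma adjusted p = 0.00018). Ear6, an eosinophil-associated ribonuclease, had 478, 371 and 262 in mDE and 1 read over the 3 MYH11 libraries, a ratio of 1262 (226 to 49897) of mDE to MYH11. Epx, eosinophil peroxidase, fell from 3996, 6004 and 2544 to 1149.6, 1256 and 865 (log2 difference -1.87, SE 0.34, limma adjusted p = 0.00126), while Ear2 overlapped between the groups at 2475, 4082 and 3682 in mDE and 5293, 2148 and 5256 in MYH11 and did not pass the test, but was called at a log2 difference of 0.66 without MYH11 replicate 2. The Ear and Mcpt genes have near-identical copies, and their division is uncertain. Summed eosinophil markers were at 0.0343 to 0.0703% of reads in mDE and 0.0258 to 0.0380% in MYH11, with overlap.

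Cytokine receptors were raised more often than lowered, with 15 of 25 called higher and 6 lower (median 0.54, and 0.95 at 5 CPM in 3 libraries). Il1rl1 (ST2), the receptor for interleukin-33 on mast cells and type 2 lymphocytes, went from 1480.4, 1266 and 999 to 44037, 28151 and 48086 (log2 difference 4.98, SE 0.20, limma adjusted p = 3.75e-07). Csf2rb2, the β chain used by the mouse interleukin-3 receptor, went from 1774, 2292 and 2526 to 35969, 25852 and 50319 (log2 difference 4.05, SE 0.22, limma adjusted p = 1.02e-06). Csf2rb, the common β chain, rose from 9779.8, 10708 and 12079 to 45199.8, 38181 and 56935 (log2 difference 2.09, SE 0.13, limma adjusted p = 2.52e-06). In all 3 genes the groups were far apart, but Csf2rb and Csf2rb2 are closely similar in sequence and their shares are uncertain. Csf1r, the receptor for macrophage colony-stimulating factor, rose 4.85-fold and Il6st, the shared gp130 signalling chain, 5.64-fold (limma adjusted p = 3.21e-06 and 1.33e-06). Csf3r, the receptor for granulocyte colony-stimulating factor, fell from 17246, 19464 and 18398 to 7081, 9878 and 6821 (log2 difference -1.23, SE 0.18, limma adjusted p = 0.000384).

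Of 23 tested cytokines and chemokines 14 were called higher and 4 lower (median 1.15). Besides Ccl24, Il4 and Il13, the anti-inflammatory cytokine Il10 rose from 3.31, 3.60 and 0 to 172, 87.8 and 235 (log2 difference 5.83, SE 0.73, limma adjusted p = 0.000125, and 5.11 without mDE replicate 3). The inflammatory cytokines Il1a and Il6 and the chemokines Ccl2 and Ccl3 were also higher (limma adjusted p = 0.000556, 0.03, 0.00022 and 0.0134), Il6 losing its call without mDE replicate 2 or 3 or MYH11 replicate 1 or 3. The 4 lower genes were Il1b, Tnf, Cxcl2 and Osm, the last losing its call when any one knock-in library except mDE replicate 1 was left out. Il1b fell from 862, 1180.0 and 792 to 287, 312 and 178 (log2 difference -1.88, SE 0.42, limma adjusted p = 0.00405). Tnf fell from 356, 467 and 638 to 58.7, 136 and 57.6 (log2 difference -2.60, SE 0.38, limma adjusted p = 0.000344). Cxcl2 fell from 41.9, 130.4 and 74.4 to 2.71, 7.67 and 0.886 (log2 difference -4.26, SE 0.97, limma adjusted p = 0.00441). In Il1b, Tnf and Cxcl2 all mDE libraries lay above all MYH11 libraries.

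Some transcription factors that act with RUNX1 changed strongly, in both directions. Gata2, a factor of stem cells and mast cells, stood at 1512, 1213 and 1559.6 in mDE and 17177, 13086 and 18135 in MYH11 (log2 difference 3.49, SE 0.16, limma adjusted p = 5.31e-07). Gata3, best known from T cells and type 2 lymphocytes, rose from 32.0, 43.2 and 52.5 to 1225, 941 and 1578 (log2 difference 4.84, SE 0.28, limma adjusted p = 1.44e-06), and Gata1, the factor of red cells, platelets and mast cells, 2.02-fold (log2 difference 1.02, SE 0.17, limma adjusted p = 0.000828). All 3 GATA genes were highest in MYH11 replicate 3 and lowest of that group in replicate 2. Zfpm1 (FOG-1), the cofactor of GATA1 in red cells and platelets, fell from 3996, 3726 and 2661 to 1023, 936 and 766 (log2 difference -1.92, SE 0.17, limma adjusted p = 1.49e-05). Lmo4 fell from 8005 ± 990.0 to 3123 ± 269 (log2 difference -1.35, SE 0.10, limma adjusted p = 5.61e-06). The scaffold proteins Lmo2 and Ldb1 did not pass the test, with 95% intervals of the log2 difference, not adjusted for the number of genes, of -0.02 to 0.26 and -0.10 to 0.14. The list of GATA and Tal1-Lmo2 factors counted 5 of 13 higher and 3 lower, with a median of 0.02.

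Runx1t1 (ETO), a corepressor that is itself the partner of RUNX1 in another leukaemia fusion, stood at 7.72, 3.60 and 9.85 normalised reads in mDE and 2048, 1307 and 2429 in MYH11 (log2 difference 7.95, SE 0.34, limma adjusted p = 5.12e-07). Its relative Cbfa2t3 (ETO2) rose from 1347, 1545 and 1432 to 4549, 3668 and 5292 (log2 difference 1.63, SE 0.12, limma adjusted p = 6.2e-06). The Groucho corepressors split, and Tle1 rose 2.24-fold (log2 difference 1.16, SE 0.08, limma adjusted p = 3.6e-06). Tle3 fell from 5189.7, 5439 and 6125 to 2294, 2282 and 2109 (log2 difference -1.32, SE 0.072, limma adjusted p = 1.1e-06). Of the general corepressors, Ncor1 did not pass the test, with a 95% interval of -0.10 to 0.28, and Hdac2 fell 1.24-fold (log2 difference -0.32, SE 0.043, limma adjusted p = 0.000211). Over the list, 7 of 19 genes were higher and 4 lower, with a median of 0.06.

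Among 17 factors of granulocytes and monocytes, 6 were called higher and 7 lower (median -0.27). Of the CCAAT-enhancer factors Cebpb was not called, and Cebpd fell from 1883, 2082 and 2529 to 526, 539 and 446 (log2 difference -2.10, SE 0.12, limma adjusted p = 1.35e-06). Cebpe, which drives secondary granules, fell from 9948, 11261 and 12757 to 1147, 1906 and 611 (log2 difference -3.35, SE 0.32, limma adjusted p = 2.57e-05). Cebpa fell from 2078 ± 154 to 1723 ± 158 (log2 difference -0.27, SE 0.083, limma adjusted p = 0.0199), a call lost without mDE replicate 2 or 3 or MYH11 replicate 2 (-0.25, -0.23 and -0.20). So did Gfi1, a repressor needed for neutrophils, from 3811 ± 153 to 1454 ± 569.7 (log2 difference -1.46, SE 0.21, limma adjusted p = 0.000272). Among the 6 risen factors, Mitf, the mast cell and pigment cell factor, went from 261, 289.6 and 289 to 1757, 1382 and 2225 (log2 difference 2.65, SE 0.15, limma adjusted p = 1.62e-06). Klf4 rose from 644, 810.4 and 825 to 2893, 2617 and 3401 (log2 difference 1.97, SE 0.12, limma adjusted p = 1.74e-06). Zeb2 rose from 3357, 3339 and 3066 to 10836, 10904 and 12023 (log2 difference 1.79, SE 0.094, limma adjusted p = 9.8e-07). In Mitf, Klf4 and Zeb2 the lowest MYH11 library held more reads than the highest mDE library. Other factors of monocytes fell: Spi1 (PU.1) and Nr4a1 were lower, with log2 differences of -0.96 and -1.45 (limma adjusted p = 5.53e-05 and 0.00171).

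Neutrophil granule genes fell together. All 28 genes for specific and gelatinase granule proteins and late neutrophil products were called lower, each by at least 2-fold, with a median log2 difference of -3.31. S100a9, a calcium-binding protein of the neutrophil cytosol and the most abundant transcript of this set, had 1366352, 1298703 and 1839537 normalised reads in mDE and 72982, 147040.1 and 30818 in MYH11 (log2 difference -4.42, SE 0.47, limma adjusted p = 4.35e-05). Ngp, the neutrophilic granule protein, had 1310366, 1284346 and 1705671 in mDE and 86469, 165845 and 34305 in MYH11 (log2 difference -4.17, SE 0.47, limma adjusted p = 6.41e-05), and Ltf, the iron-binding lactoferrin, 798316, 862111 and 1055175 in mDE and 81395, 166709 and 34027 in MYH11 (log2 difference -3.54, SE 0.47, limma adjusted p = 0.000176). In each gene every mDE library exceeded every MYH11 library. The MYH11 libraries themselves ranged from replicate 3, the lowest, to replicate 2, the highest, over a span of more than 4-fold. Ly6g, the surface marker of neutrophils, fell from 13262, 13855 and 17663 to 572, 1016 and 199 (log2 difference -4.92, SE 0.47, limma adjusted p = 2.5e-05). Mmp9, gelatinase B, fell from 69448, 86502 and 103828 to 5143, 9941 and 2531 (log2 difference -4.08, SE 0.42, limma adjusted p = 4e-05). Smaller falls were those of Chil3, a chitinase-like protein, at 0.429-fold of its mDE level (log2 difference -1.23, SE 0.18, limma adjusted p = 0.000366), and Lyz2, lysozyme, at 0.366-fold (log2 difference -1.46, SE 0.21, limma adjusted p = 0.000279).

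MYH11 replicate 2 was the highest of its group in 27 of the 28 genes, with a median ratio to the group mean of 2.02, and replicate 3 the lowest in 28 of 28, with 0.502. Without replicate 2 the median log2 difference of the list was -3.81, and without replicate 3 it was -2.84, with 28 genes called in both cases. Without replicate 3 the log2 difference was -3.84 for S100a9, -3.57 for Ngp, -2.95 for Ltf and -4.28 for Ly6g. Late neutrophil markers, of which 10 of 10 had reads, took 10.6 to 13.2% of the reads in mDE, 9.53 to 11.1% in WT and 0.365 to 1.68% in MYH11. The markers and the list share genes, and the part of the number of neutrophils retained by the selection was not tested. In MYH11 replicate 2, the library with the most neutrophil reads, mast cell genes called higher stood at a median of 0.787 of the group mean.

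**Figure D4:**
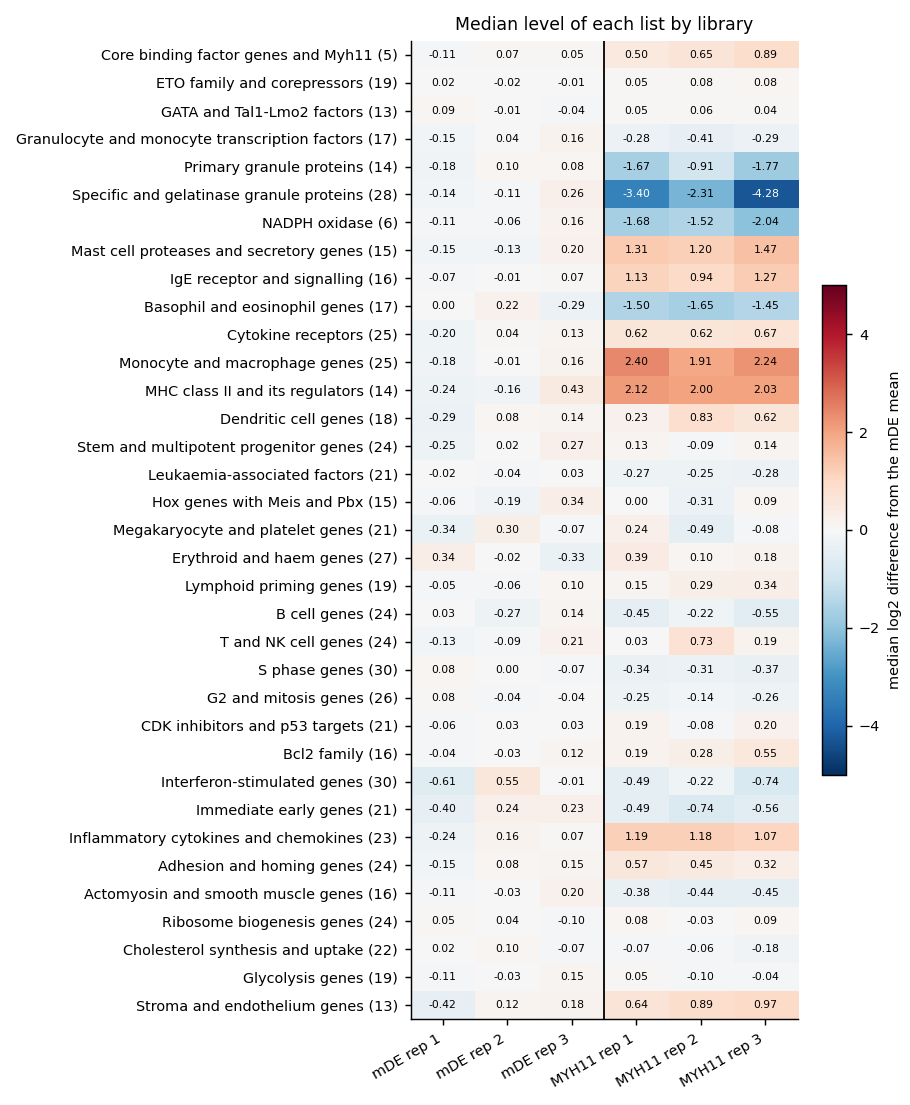
Median over the tested members of each list (number in brackets) of the log2 difference from the mDE mean, in each of the 6 libraries, with colour and printed value. The spread within MYH11 is widest for the specific granule list, from -2.31 in replicate 2 to -4.28 in replicate 3, and within mDE for interferon-stimulated genes, from -0.61 in replicate 1 to 0.55 in replicate 2.

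The primary granules, which are made earlier in the promyelocyte, were affected less evenly. Of 14 tested genes 10 were lower and 2 higher (median -1.47). Elane, neutrophil elastase, fell from 56967, 80525 and 63444 to 16842, 23067 and 13405 (log2 difference -1.93, SE 0.19, limma adjusted p = 2.73e-05). Fcnb, ficolin B, fell from 23862, 30370.3 and 28679.5 to 3208, 5398 and 1909.6 (log2 difference -3.10, SE 0.30, limma adjusted p = 2.42e-05). Mpo, myeloperoxidase, had 144560.5, 199520.4 and 192416 in mDE and 92604, 124100.1 and 106779 in MYH11, a smaller fall without overlap (log2 difference -0.73, SE 0.16, limma adjusted p = 0.00403). Ctsg, cathepsin G, which is stored in the same granules, overlapped at 24332, 27092 and 28688 in mDE and 23017, 33963 and 24582 in MYH11 and did not pass the test (95% interval of the log2 difference -0.33 to 0.35). Ctsc, the protease that activates elastase, cathepsin G and mast cell chymases, moved the other way, from 2932, 3204 and 3351 to 36195, 30249 and 36241 (log2 difference 3.43, SE 0.083, limma adjusted p = 7.38e-08). All 6 subunits of the NADPH oxidase, which makes superoxide in phagocytes, were lower (median -1.75): Cybb, the catalytic subunit, fell 3.84-fold, Ncf1 4.60-fold, Ncf4 5.20-fold and Rac2, the GTPase, 2.57-fold (limma adjusted p = 2.45e-05, 1.66e-05, 1.05e-05 and 8.72e-06).

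Monocyte and macrophage genes rose, with 20 of 25 called higher, 1 lower and a median of 2.20. Fn1, fibronectin, had 2272, 2519 and 1789 in mDE and 79972, 65084 and 70325 in MYH11 (log2 difference 5.04, SE 0.14, limma adjusted p = 1.18e-07), and Vcan, the matrix proteoglycan versican, 38.6, 41.4 and 15.3 in mDE and 3319, 3003 and 3008 in MYH11 (log2 difference 6.69, SE 0.34, limma adjusted p = 8.35e-07). F13a1, coagulation factor XIII A of monocytes, rose from 12827, 12507 and 12369 to 69602, 63992 and 73851 (log2 difference 2.46, SE 0.09, limma adjusted p = 2.65e-07). Msr1, the macrophage scavenger receptor, rose from 48.5, 60.3 and 79.9 to 1168, 1067 and 982 (log2 difference 4.10, SE 0.22, limma adjusted p = 1.04e-06). The groups were far apart in all 4 genes, and the 3 MYH11 libraries were close to each other. Replicate 2 was the lowest of its group in 18 of the 20 genes called higher, at a median of 0.873 of the group mean. Ly6c2, the surface marker of classical monocytes, did not pass the test, at 36137, 41527 and 45885 in mDE and 33857, 41191 and 38255 in MYH11, nor did the Fc receptor Fcgr3 (95% intervals -0.37 to 0.12 and -0.35 to 0.04). Cx3cr1, the fractalkine receptor of patrolling monocytes, fell from 633, 1004 and 1194 to 223, 188 and 192 (log2 difference -2.18, SE 0.21, limma adjusted p = 2.73e-05). Summed monocyte markers took 0.130 to 0.151% of the reads in mDE and 0.433 to 0.484% in MYH11, and their part in the change of the list was not tested.

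Antigen presentation by MHC class II moved in the same direction, with 11 of 14 genes called higher, 1 lower and a median of 2.05. Ciita, the master activator of class II genes, rose from 172, 229 and 324 to 4213, 3239 and 3528 (log2 difference 3.95, SE 0.22, limma adjusted p = 1.15e-06). H2-Ab1, a class II β chain, rose from 2258, 2453 and 5111 to 17229, 15172 and 15851 (4.91-fold, limma adjusted p = 0.000106). Ifi30, a lysosomal reductase for antigen processing, rose from 1573, 1777 and 2181 to 16978, 12548 and 15378 (log2 difference 3.02, SE 0.13, limma adjusted p = 5.27e-07). In mDE replicate 3 was the highest library in 9 of the 11 risen genes, and it stayed below every MYH11 library in the genes named here. Of the promoter-binding RFX subunits, Rfx5 and Rfxank were called higher, whereas Rfxap fell from 631 ± 33.7 to 477 ± 67.5 (log2 difference -0.41, SE 0.11, limma adjusted p = 0.0104). The dendritic cell list held 8 of 18 genes higher and 2 lower (median 0.50): Batf3, a factor of cross-presenting dendritic cells, rose from 9.92, 19.8 and 17.5 to 393, 231 and 365 (log2 difference 4.32, SE 0.33, limma adjusted p = 6.25e-06). The lectin Cd209a rose from 62.8, 123 and 84.3 to 1027, 604 and 759 (log2 difference 3.15, SE 0.30, limma adjusted p = 2.45e-05). Zbtb46, a factor of classical dendritic cells that erythroid progenitors also express, fell from 578, 546 and 355 to 83.1, 109.9 and 42.5 (log2 difference -2.70, SE 0.31, limma adjusted p = 7.69e-05). Summed dendritic cell markers were at 0.00466 to 0.00537% of reads in mDE and 0.00763 to 0.00919% in MYH11, and their part in these changes was not tested.

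Red cell genes were divided. Of 27 genes 12 were called higher and 7 lower (median 0.21). Hba-a1, an α-globin gene, rose from 6873, 3453 and 3437 to 44007, 30916 and 51271 (log2 difference 3.25, SE 0.28, limma adjusted p = 1.29e-05). Alas2, the first enzyme of erythroid haem synthesis, rose from 1028, 456 and 528 to 10569, 8124 and 12878 (log2 difference 4.04, SE 0.32, limma adjusted p = 8.09e-06). Aqp1, the water channel of the red cell membrane, fell from 23151, 20396 and 14346 to 2426, 2383 and 1146 (log2 difference -3.33, SE 0.28, limma adjusted p = 1.1e-05). Car1, carbonic anhydrase of red cells, fell from 24868 ± 6295 to 9798 ± 2133 (log2 difference -1.34, SE 0.20, limma adjusted p = 0.000417). Hba-a1 and Hba-a2 encode near-identical α-globins, so their reads cannot be assigned with confidence. Summed erythroid markers, mostly globin, took 0.0313 to 0.0639% of the reads in mDE and 0.190 to 0.302% in MYH11, and their part in these rises was not tested.

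Platelet genes were divided in a similar way, with 10 of 21 higher and 8 lower (median -0.20, mean 0.58, and median 0.50 without mDE replicate 2 and 1.47 at 5 CPM in 3 libraries). Mrvi1, a substrate of cGMP-dependent kinase in platelets and smooth muscle, rose from 86.0, 283 and 119 to 9628, 7157 and 12805 (log2 difference 6.06, SE 0.41, limma adjusted p = 3.24e-06). Gp1ba, the von Willebrand factor receptor chain, rose from 121, 246 and 164 to 2296, 1521 and 2688 (log2 difference 3.63, SE 0.26, limma adjusted p = 4.94e-06), whereas Gp1bb and Gp9, which assemble with it on the platelet surface, fell 4.13-fold and 3.70-fold (limma adjusted p = 0.000409 and 4.08e-05). Pf4, platelet factor 4, fell from 237, 922 and 383 to 124, 82.7 and 135 (log2 difference -1.97, SE 0.44, limma adjusted p = 0.00424). Thbs1, thrombospondin, fell from 4138, 5830.0 and 4414 to 847, 1314 and 729 (log2 difference -2.34, SE 0.28, limma adjusted p = 0.000101). The mDE libraries differed among themselves here, and replicate 2 held the most Pf4. Summed megakaryocyte markers took 0.00336 to 0.00636% of the reads in mDE and 0.00589 to 0.00981% in MYH11, with overlap.

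Stem and progenitor genes did not move as a group, with 8 of 24 higher, 3 lower and a median of 0.06. Without mDE replicate 1 the lower count was 5. Tek, the angiopoietin receptor of stem cells and endothelium, rose from 78.3, 89.0 and 141 to 1663, 1011 and 1604 (log2 difference 3.79, SE 0.30, limma adjusted p = 8.46e-06). Ctnnal1 rose from 149, 142 and 155 to 1074, 802 and 1140.4 (log2 difference 2.73, SE 0.14, limma adjusted p = 8.1e-07). Cd34, the progenitor surface glycoprotein, did not pass the test, with a 95% interval of -0.30 to 0.52. Summed stem cell markers were at 0.0252 to 0.0272% of reads in mDE and 0.0253 to 0.0308% in MYH11. Kit, the selected receptor, is 1 of these 6 markers, held most of the sum in mDE and was lower in MYH11. Without Kit the rest of the sum was higher in every MYH11 library than in any mDE library, so the overlap of the full sum depends on Kit.

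Of the Hox genes and their cofactors 15 of 20 passed the filter, 4 were higher and 3 lower (median -0.01, mean 0.34). Pbx2, a Hox cofactor, fell from 4935, 5105 and 5228 to 2596, 3021 and 2661 (log2 difference -0.89, SE 0.072, limma adjusted p = 9.54e-06). Hoxa9 and Meis1, a pair raised in many other leukaemias, did not pass the test, at 183, 178 and 296 and 437, 501 and 536 in mDE and 172, 161 and 131 and 539, 374 and 533 in MYH11. Among 21 tested factors linked to leukaemia, 11 were lower and 4 higher (median -0.27). Ikzf2 (Helios) rose from 339.5, 291 and 287 to 2496, 2184 and 3201 (log2 difference 3.09, SE 0.16, limma adjusted p = 1.05e-06), Ikzf1 (Ikaros) fell from 23553 ± 1193 to 13237 ± 1255 (log2 difference -0.83, SE 0.073, limma adjusted p = 1.42e-05). Trib1, a pseudokinase that lowers C/EBPα, fell from 966, 1342 and 1220.3 to 272, 239 and 215 (log2 difference -2.27, SE 0.21, limma adjusted p = 2.02e-05). Myc rose from 4645 ± 251 to 6067 ± 485 (log2 difference 0.38, SE 0.12, limma adjusted p = 0.0231), and the call was lost without mDE replicate 1 or 2 or MYH11 replicate 1 or 3, at log2 differences of 0.34 to 0.36.

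Lymphoid priming genes counted 9 of 19 higher and 3 lower (median 0.24), with Irf4 going from 671, 379 and 396 to 2261, 1864 and 2757 (log2 difference 2.28, SE 0.22, limma adjusted p = 2.66e-05). The chromatin organiser Satb1 fell from 3308, 3274 and 3669 to 1340.2, 1706 and 1558 (log2 difference -1.16, SE 0.093, limma adjusted p = 8.49e-06). B cell genes, from precursors to plasma cells, were more often lower, with 10 of 24 lower and 3 higher (median -0.46; 5 higher without MYH11 replicate 1): Ms4a1 (CD20) went from 322, 514 and 832 to 56.0, 44.3 and 35.4 (log2 difference -3.51, SE 0.31, limma adjusted p = 1.54e-05). The kinase Blk fell from 250.2, 194 and 311 to 26.2, 16.2 and 19.5 (log2 difference -3.55, SE 0.23, limma adjusted p = 2.48e-06). The pan-B genes Cd79a and Cd79b did not pass the test, at 1552 ± 363 and 1714 ± 227 in mDE and 1276 ± 304 and 2013 ± 226 in MYH11. Cd79a was called lower without mDE replicate 2 (log2 difference -0.49), and Cd79b higher without mDE replicate 3 or MYH11 replicate 1 (0.32 in both). Summed B cell markers overlapped, at 0.00856 to 0.0113% of reads in mDE and 0.00920 to 0.0141% in MYH11. The adaptor Blnk, which mast cells and macrophages may also use, rose from 1323, 681 and 798 to 4568, 4046 and 6295 (log2 difference 2.44, SE 0.24, limma adjusted p = 2.75e-05).

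T and NK cell genes counted 8 of 24 higher and 6 lower, with 10 lower and 5 higher without MYH11 replicate 2, the library of its group with the most reads of all 6 called lower. The higher count was also 5 without mDE replicate 1 or 2. Ncr1, an activating receptor of NK cells, fell from 209, 186 and 173 to 9.04, 13.6 and 12.4 (log2 difference -3.92, SE 0.20, limma adjusted p = 7.78e-07). Tcf7 fell from 256, 273 and 318 to 43.4, 75.9 and 42.5 (log2 difference -2.41, SE 0.22, limma adjusted p = 1.63e-05). Cd7 rose from 191, 246 and 262 to 999.5, 682 and 1056 (log2 difference 1.95, SE 0.18, limma adjusted p = 1.75e-05). Summed T and NK cell markers overlapped, at 0.00121 to 0.00155% of reads in mDE and 0.00109 to 0.00193% in MYH11.

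Most genes of DNA replication were lower in MYH11, all but Ccne1 by less than 2-fold. Of 30 S phase genes 25 were called lower and 3 higher, and the median log2 difference was -0.33. The higher count dropped to 1 when WT replicate 1, 2 or 3, mDE replicate 3 or MYH11 replicate 3 was left out. Mcm5, a subunit of the replicative helicase, had 17836, 18382 and 16853 in mDE and 12599, 12536 and 12129 in MYH11 (log2 difference -0.51, SE 0.051, limma adjusted p = 3.1e-05), and Rrm2, the ribonucleotide reductase subunit, 17217, 14819.6 and 14825 in mDE and 9131, 9865 and 8874 in MYH11 (log2 difference -0.75, SE 0.075, limma adjusted p = 3.14e-05). Ccne1, cyclin E1, fell the most, from 3882, 2875 and 2665 to 1272, 1336 and 1076 (log2 difference -1.34, SE 0.14, limma adjusted p = 3.7e-05). In each gene the groups were separate and the MYH11 libraries close together. Of 26 genes of G2 and mitosis 16 were lower (median -0.22) and 0 were called higher by limma, by edgeR or by DESeq2, with 0 higher at an unadjusted p of 0.05 by limma. Cdk1 fell from 9018 ± 492 to 6257 ± 446 (log2 difference -0.53, SE 0.067, limma adjusted p = 0.000137). Mki67 and Top2a, widely used markers of dividing cells, did not pass the test, at 47603 ± 4942 and 37738 ± 2795 in mDE and 50040.3 ± 5581 and 40250.5 ± 2556 in MYH11 (95% intervals -0.15 to 0.30 and -0.08 to 0.27).

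Inhibitors of the cell cycle and p53 targets counted 9 of 21 higher and 7 lower (median 0.03). Cdkn1a (p21) rose from 329.6, 277 and 326 to 1239, 905 and 1483 (log2 difference 1.93, SE 0.18, limma adjusted p = 1.76e-05). Phlda3, a p53 target that restrains AKT, rose from 34.2, 66.6 and 76.6 to 734, 576 and 812 (log2 difference 3.62, SE 0.28, limma adjusted p = 6.7e-06) and Bbc3 (PUMA) from 111, 133 and 93.0 to 474, 326 and 635 (log2 difference 2.04, SE 0.24, limma adjusted p = 7.8e-05). Cdkn2d (p19) fell from 4238, 3984 and 5463 to 1909, 2195 and 1887 (log2 difference -1.18, SE 0.12, limma adjusted p = 3.25e-05). Fas, the death receptor, fell from 528, 611 and 584 to 260.3, 326 and 253 (log2 difference -1.04, SE 0.14, limma adjusted p = 0.000192). Pro-apoptotic members of the Bcl2 family were among those that rose: Bmf went from 235, 217 and 418 to 1602, 1349 and 1479 (log2 difference 2.41, SE 0.22, limma adjusted p = 1.68e-05), Bcl2l11 (BIM) from 1564, 1353 and 1232 to 3176, 2810.1 and 3654 (log2 difference 1.21, SE 0.11, limma adjusted p = 2e-05) and Bax 1.66-fold (log2 difference 0.73, SE 0.066, limma adjusted p = 1.66e-05). Of the survival proteins, Bcl2l1 (BCL-XL) rose 1.51-fold (log2 difference 0.60, SE 0.095, limma adjusted p = 0.000528), and Mcl1 and Bcl2 did not pass the test (95% intervals -0.07 to 0.33 and -0.43 to -0.02), although Bcl2 was called lower without MYH11 replicate 3 (-0.32), with recomputed DESeq2 size factors (-0.24) and by DESeq2 (-0.24). Over the family 7 of 16 were higher and 1, the pro-apoptotic Bid, lower, at a log2 difference of -0.16 (limma adjusted p = 0.0494). Bid lost its call when any library but MYH11 replicate 2 was left out, with TMM or upper-quartile scaling, without a filter on low counts, by edgeR or limma-voom, and in the fit of the 6 knock-in libraries.

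Interferon-stimulated genes, which pIpC itself induces, were uneven among the mDE libraries. Of 30 genes 4 were called higher and 11 lower, with a median of -0.52. Without mDE replicate 2 the counts were 7 and 10 with a median of -0.16, and without mDE replicate 1 they were 4 and 16 with a median of -0.68. Cmpk2, a mitochondrial nucleotide kinase, fell from 2567, 3837 and 3404 to 1014, 1331 and 709 (log2 difference -1.71, SE 0.22, limma adjusted p = 0.000138) and Ddx58 (RIG-I), a sensor of viral RNA, from 2296, 3107 and 2789 to 1258, 1578 and 1053 (log2 difference -1.08, SE 0.16, limma adjusted p = 0.000329). Ifi44l had 30.9, 85.4 and 55.8 in mDE, 1 read over the 3 MYH11 libraries and none in WT, a ratio of 202 (35.8 to 8033) of mDE to MYH11. Mx1, an antiviral GTPase, and Ifi204, a DNA sensor, went the other way, from 160.2 ± 80.7 to 703 ± 140.5 (log2 difference 2.23, SE 0.33, limma adjusted p = 0.000332) and from 399, 612 and 459.7 to 2302, 2612 and 2061 (log2 difference 2.26, SE 0.22, limma adjusted p = 2.31e-05). Among mDE libraries replicate 2 was the highest in 26 of the 30 genes and replicate 1 the lowest in 27.

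Immediate early genes, which respond to handling and to signals within minutes, counted 5 of 21 higher and 6 lower (median -0.61), and 10 lower without mDE replicate 1. Fos did not pass the test although the groups did not overlap, at 1702, 6818 and 2029 in mDE and 1232, 1054 and 842 in MYH11, with mDE replicate 2 far above the other libraries. The log2 difference was -1.48, and -0.85 without that library. Fos was called without WT replicate 1 and in the fit of the knock-in libraries alone. Ier2 fell from 2741, 3546 and 3560.3 to 1409, 1399 and 1436 (log2 difference -1.20, SE 0.13, limma adjusted p = 6.25e-05). Atf3, a stress-induced factor, rose from 27.6, 62.1 and 76.6 to 731, 647 and 929.5 (log2 difference 3.87, SE 0.43, limma adjusted p = 5.83e-05).

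Adhesion molecules went both ways. Of 24 genes 12 were higher and 8 lower (median 0.49). Podxl, a sialomucin of podocytes, endothelium and progenitors, had 70.5, 143 and 94.1 in mDE and 21718, 15831 and 23009 in MYH11 (log2 difference 7.65, SE 0.24, limma adjusted p = 1.55e-07). The integrin chains Itgb7 and Itga1, which serve homing to gut and binding of collagen, rose from 1397, 1931 and 2366 to 12803, 11672 and 11599 (log2 difference 2.69, SE 0.16, limma adjusted p = 1.99e-06) and from 346, 331 and 271 to 1667, 1620.2 and 1754 (log2 difference 2.41, SE 0.16, limma adjusted p = 2.75e-06). The leukocyte integrin chains Itgam (CD11b) and Itgb2 (CD18) fell from 69767, 81381 and 73145 to 19721, 27216 and 14679 (log2 difference -1.91, SE 0.21, limma adjusted p = 5.74e-05) and from 49057, 54139 and 61926 to 14647, 18292 and 11980.2 (log2 difference -1.89, SE 0.16, limma adjusted p = 1.34e-05). Other integrin chains did not follow these pairs, as Itga2, a collagen-binding chain, was lower (log2 difference -0.69, SE 0.21, limma adjusted p = 0.0181) and Itgax, a partner of Itgb2, higher (log2 difference 0.79, SE 0.26, limma adjusted p = 0.0277). Both calls were lost without MYH11 replicate 2, that of Itga2 also without mDE replicate 2, and that of Itgax also without mDE replicate 1 or MYH11 replicate 1. Cxcr4, which holds progenitors in marrow, fell from 12697, 12542 and 17118 to 4726, 5063 and 4949 (log2 difference -1.51, SE 0.11, limma adjusted p = 4.51e-06). Cxcl12, its ligand, rose from 34.2, 33.3 and 42.7 to 1167, 772 and 1733 (log2 difference 4.95, SE 0.26, limma adjusted p = 1.04e-06). The receptor and the ligand thus moved in opposite directions, with no overlap in either.

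Cxcl12 is usually a product of stromal cells, and of 13 tested genes of stroma and endothelium 8 were higher and 4 lower (median 0.77; 5 higher without MYH11 replicate 3). The collagen gene Col1a1 fell from 123, 279 and 183 to 19.0, 30.7 and 39.9 (log2 difference -2.65, SE 0.36, limma adjusted p = 0.000221). Pecam1, of endothelium and leukocytes, rose from 1699, 1631 and 1847 to 3067, 3387 and 3369.9 (log2 difference 0.92, SE 0.093, limma adjusted p = 3.23e-05). Summed stroma and endothelium markers took 0.00421 to 0.00437% of the reads in mDE and 0.0110 to 0.0138% in MYH11. Pecam1 held most of this sum in mDE, and Pecam1 and Cxcl12 together nearly all of it in MYH11. The rise of the sum is thus mainly theirs, and Col1a1, which is in the same sum, fell. The part of these markers in the list was not tested. Of 16 tested actomyosin genes 5 were higher and 9 lower (median -0.42, mean 0.06): Myh9, the main non-muscle myosin, fell from 69484, 81012 and 76667 to 32637, 37653 and 30438 (log2 difference -1.18, SE 0.13, limma adjusted p = 6.65e-05). Cnn2, calponin 2, fell from 27119, 28341 and 34848 to 7675, 8761 and 6113 (log2 difference -2.01, SE 0.15, limma adjusted p = 5.12e-06). The smooth muscle calponin Cnn1 rose from 4.41, 4.50 and 5.47 to 66.9, 66.5 and 83.3 (log2 difference 3.66, SE 0.40, limma adjusted p = 5.05e-05). Tropomyosin Tpm1 rose from 1635, 1516 and 1253 to 4061, 3558 and 4492 (log2 difference 1.46, SE 0.13, limma adjusted p = 1.54e-05).

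**Figure D5:**
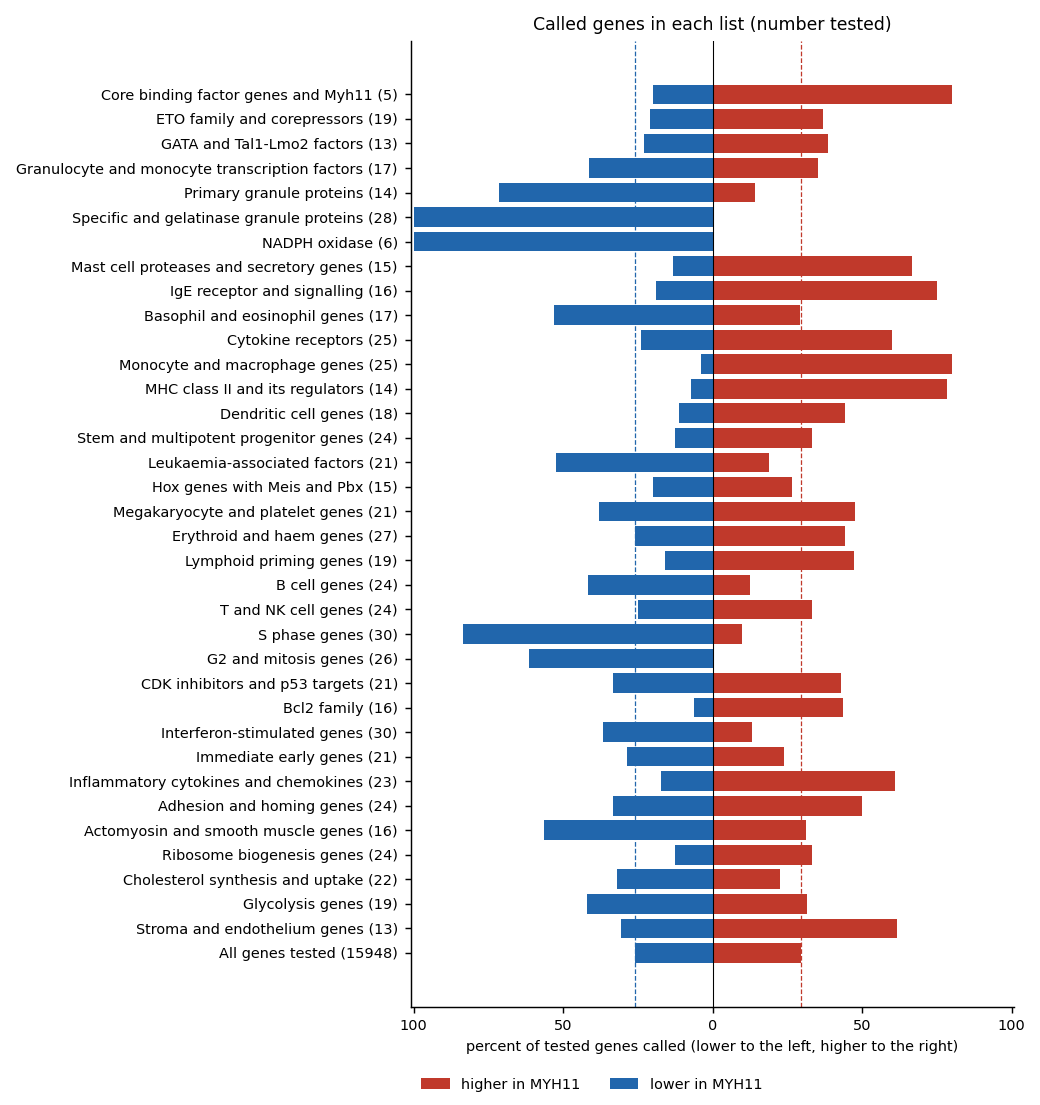
Percent of the tested genes of each list (number in brackets) called higher in MYH11 (red, to the right) and lower (blue, to the left), with dashed lines at the shares over all genes, 29.6% and 26.0%. The specific granule and NADPH oxidase lists reach 100% lower, the S phase list lies far to the left, and the monocyte, MHC class II and IgE receptor lists lie to the right.

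The largest falls included genes outside the neutrophil granule list. Sh3tc2, an adaptor of endosomal recycling, had 982, 641 and 465 in mDE and 1.81, 0.852 and 0.886 in MYH11 (log2 difference -8.28, SE 0.27, limma adjusted p = 1.62e-07). Cldn1, a tight junction protein, had 2473, 2137 and 2757 in mDE and 37.1, 28.1 and 12.4 in MYH11 (log2 difference -6.63, SE 0.34, limma adjusted p = 8.36e-07), and Fam71b 305, 377 and 415 in mDE and 1.81, 4.26 and 1.77 in MYH11 (log2 difference -6.72, SE 0.31, limma adjusted p = 6.03e-07). No MYH11 library reached the lowest mDE library in these genes. Aldh1a1 and Aldh1a7, enzymes that oxidise retinaldehyde and other aldehydes, fell from 3342, 2571 and 1879 to 47.0, 66.5 and 17.7 (log2 difference -6.01, SE 0.40, limma adjusted p = 3.24e-06) and from 972, 873 and 578 to 7.23, 8.52 and 7.09 (log2 difference -6.52, SE 0.19, limma adjusted p = 1.3e-07), but their transcripts are closely similar and the split is uncertain. Acsl6, which activates fatty acids in red cell precursors and brain, fell from 238, 258 and 283 to 2.71, 8.52 and 0.886 (log2 difference -6.00, SE 0.48, limma adjusted p = 8.15e-06). Chit1, the chitinase of macrophages and neutrophils, fell from 893, 1067 and 1934 to 39.8, 115 and 7.97 (log2 difference -5.14, SE 0.78, limma adjusted p = 0.000407). The remaining large falls were Prss50, Sh2d4a, Spon2, Tmem45a2, Tex15 and Rasl11b. Their log2 differences were -6.08, -5.71, -5.63, -5.21 and -4.69 for the first 5. Without MYH11 replicate 3 the values were -5.39 for Prss50 and -4.16 for Chit1, and without MYH11 replicate 2 they were -6.00 for Chit1 and -6.62 for Acsl6. In 9 of the 15 largest falls, Fam71b, Aldh1a7, Prss50, Aldh1a1, Acsl6, Tmem45a2, Chit1, Ly6g and Tex15, MYH11 replicate 3 was the lowest library and replicate 2 the highest of its group, the same order as in the granule genes.

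Against these changes, some abundant housekeeping transcripts did not differ beyond their spread. The glycolytic enzyme Gapdh had 71288, 74385 and 85089 in mDE and 83881, 78385 and 79618 in MYH11, with a 95% interval of the log2 difference of -0.14 to 0.28. The ribosomal protein gene Rpl4 had an interval of -0.25 to 0.15. Actb, often used as a reference, did differ and fell from 252954, 213286 and 314139.5 to 159874, 157341 and 151124 (log2 difference -0.72, SE 0.16, limma adjusted p = 0.00333). Of 24 ribosome biogenesis genes 8 were higher and 3 lower (median 0.06), and 4 were higher without MYH11 replicate 3. Noc2l rose from 4326 ± 825 to 6436 ± 349.8 (log2 difference 0.59, SE 0.11, limma adjusted p = 0.00189), while the nucleolar proteins Ncl and Npm1 did not pass the test (95% intervals -0.21 to 0.11 and -0.22 to 0.05).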

How the data were processed

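RNA-seq of CD117-selected bone marrow cells gave 9 libraries, 3 each of WT, mDE and MYH11. Per the labels' protocols, total RNA was extracted. CASAVA 1.8.2, STAR 2.4, RSEM, DESeq2 and GRCm38 are named, with no role or order, per the submitters' processing notes. The deposited signal values are the authors' normalised gene counts, as each value of a column is a whole multiple of its smallest nonzero value (100% of values within a relative tolerance of 1e-06). Whole reads were recovered by that division. The deposited log2 fold changes and adjusted p-values, for a comparison that the file headers do not name, were not used. Gene names and coordinates (GENCODE M21, GRCm38) matched 42462 of 43629 gene IDs, of which 17919 had no read in any library.

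Genes with enough recovered reads (edgeR 4.0.16 filterByExpr) were tested with limma 3.58.1 (trend, R 4.3.3) on log2(normalised value + 1), on the 9 libraries with genotype as the only term, for MYH11 minus mDE, two-sided, with Benjamini-Hochberg adjustment over all 15948 genes. The residual degrees of freedom were 6, with 3.2 from the prior. The values are not counts, so edgeR, DESeq2 1.42.0 and limma-voom on the recovered reads were alternatives. Other alternatives changed the scaling, the filter, the pseudocount or the libraries in the fit. The script was tested on simulated data. Low-count ratios carry exact intervals, which cover counting error only.

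Named genes were Cbfb, Myh11, Runx1 and Kit; the 15 largest rises and 15 largest falls whose groups did not overlap and whose higher group reached 5 CPM, skipping 1 rise and 1 fall without a functional name; the 10 most abundant called genes and the 10 most abundant with an interval within -0.5 to 0.5; and from each of 35 lists (670 genes) up to 5 called members, up to 3 not called and those called against their list. The text gives a selection of them, and a few genes are not reported here. Ccl2, Ccl3, Cebpa, Cebpe, Epx, Gfi1, Il1a, Il6, Itgax, Mcpt8, Nr4a1, Spi1 and the listed genes below the filter were added after their values were seen. The comparison and the gene lists were chosen with earlier results of these data known. Within each group the libraries differed far beyond sampling noise (chi-square per degree of freedom 22.7 to 73.0), so none was counted as a duplicate. Python 3.11.15, pandas 2.3.3, numpy 2.4.6, scipy 1.17.1 and matplotlib 3.10.9 were used for the descriptions and figures.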

Additional observations from a re-analysis of the deposited data

How the results depend on the processing

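The number of called genes stayed within 1.5 times of 8869 under all 21 alternatives. It was 8866 with TMM scaling, 8889 (4544 higher and 4345 lower) with recomputed DESeq2 size factors, 8815 with upper-quartile scaling, 8845 and 8902 with pseudocounts of 0.5 and 4, 9174 of 25710 genes without a filter on low counts, and 6822 of 10610 genes at 5 CPM or more in 3 libraries. On the recovered whole reads edgeR called 8888 genes, DESeq2 8859 and limma-voom 8872. A fit of the MYH11 and mDE libraries alone called 8255, and leaving out each library in turn gave 7643 (without MYH11 replicate 3) to 8748 (without WT replicate 1). Rescaling moved the median of all genes by at most 0.018 on the log2 scale. The deviations of same-numbered MYH11 and mDE libraries correlated at -0.043, 0.011 and -0.009, so no shared deviation was seen. This cannot show whether the samples were handled in pairs. A fit with the replicate block called 8786 genes.

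Reversals among the named genes were limited to 3 genes that did not pass the test. For Ctsg the log2 difference of 0.01 became -0.011 with recomputed DESeq2 size factors and ranged from -0.16 to 0.12 over the left-out libraries; for Meis1 that range was -0.13 to 0.13 and for Mki67 -0.015 to 0.15. The cause was not tested. Counts in lists moved most at 5 CPM, where higher members fell to 2 of stroma, 8 of cytokine and 4 of T and NK cell genes, with fewer genes tested. With DESeq2 the lower members were 10 immediate early and 4 dendritic cell genes. Precision is limited by 3 libraries a group, by the wide spread of granule genes within MYH11 and, for genes with a handful of reads in a group, by counting error.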

Other observations

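Genes of cholesterol handling were divided by role. Of 22 genes, 5 were higher and 7 lower in MYH11, with a median log2 difference of -0.12 and a mean of 0.13. Abca1 and Abcg1, the transporters that export cholesterol from macrophages, rose from 473, 464 and 428 to 3561, 1926 and 3808 (log2 difference 2.70, SE 0.23, limma adjusted p = 1.12e-05) and from 799, 1051 and 1360.4 to 6216, 4239 and 7768 (log2 difference 2.49, SE 0.23, limma adjusted p = 1.93e-05). Of the enzymes of the synthesis pathway, Msmo1 fell from 1804, 1729.6 and 2037 to 814, 801 and 715 (log2 difference -1.26, SE 0.08, limma adjusted p = 2.55e-06) and Hsd17b7 from 849.9, 604 and 547 to 244, 245 and 191 (log2 difference -1.54, SE 0.17, limma adjusted p = 6.08e-05). In each of these 4 genes the groups did not overlap.

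Glycolysis genes were divided, only in part between isoforms. Of the hexokinases Hk1 was called higher and Hk2 and Hk3 lower. Enzymes listed with a single gene also moved, with Gpi1, Pgk1, Pgam1 and Pkm lower and Tpi1 higher. Of 19 tested genes, 6 were higher and 8 lower (median -0.05, mean 0.01). Ldhb, the lactate dehydrogenase B chain, fell from 1803, 1972 and 2274 to 318, 382 and 225 (log2 difference -2.73, SE 0.17, limma adjusted p = 2.38e-06) and Hk3, the hexokinase of myeloid cells, from 22407, 24487 and 25649 to 7511, 11479.8 and 7642 (log2 difference -1.47, SE 0.16, limma adjusted p = 4.81e-05). Pfkp, the platelet-type phosphofructokinase, rose from 2598, 2930.3 and 2919 to 8828, 7936 and 10279.8 (log2 difference 1.67, SE 0.094, limma adjusted p = 1.34e-06) and Slc2a1, the glucose transporter GLUT1, from 621, 675 and 693 to 2614, 2038 and 3255 (log2 difference 1.96, SE 0.15, limma adjusted p = 7.28e-06). The groups did not overlap in these 4 genes. Late neutrophil markers, which fell from 10.6 to 13.2% of the reads to 0.365 to 1.68%, moved with the fallen genes, and their part was not tested.

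Genes close to the targeted locus were called about as often as all genes. Within 1 Mb of Cbfb, 33 of 56 tested genes (58.9%) were called, 19 higher and 14 lower, with a median log2 difference of 0.06. Within 5 Mb, 53 of 99 (53.5%) were called, 30 higher and 23 lower, with a median of 0.04, against 55.6% over all genes.

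Xist, which is transcribed from the inactive X chromosome, was at 3976 to 11238 normalised reads in mDE and 18868 to 35731 in MYH11, and summed Y-linked genes were at 18.6 to 45.2 over the libraries. The labels give no sex.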
